A study of Mus musculus with 9 samples.

Results

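Toll-like receptors are the membrane proteins with which cells of the innate immune system sense microbial products and material released by damaged cells. The 10 genes described here are Tlr1, Tlr2, Tlr3, Tlr4, Tlr5, Tlr6, Tlr7, Tlr8, Tlr9 and Tlr13, chosen by their symbols among the 18349 genes of a mouse iris RNA-Seq study. They were chosen with earlier results of these data known, and all 10 had enough counts to be tested among 15010 genes. Tlr11 and Tlr12 were listed too but are not among the 10. Tlr12, which went the other way from most of them, is described at the end. RNA came from 9 libraries, 3 for each of 3 groups on a C57BL/6J background, and each library pooled 3 irises of mice with identical genotypes. Sham VEGFR3fl/fl mice had PBS on the cornea, whereas injured VEGFR3fl/fl and injured VEGFR3iLECko mice received a corneal alkali injury (CAI) at 6 weeks of age, in which sodium hydroxide (1 M, 0.5 μL) stayed on the cornea for 60 seconds. All 3 groups carried floxed VEGFR3 (gene symbol Flt4), the receptor that drives growth of lymphatic vessels, and VEGFR3iLECko mice also carried the tamoxifen-inducible Prox1-CreERT2 transgene, active in cells that express Prox1 such as lymphatic endothelium. The tamoxifen dose was 80 mg/kg on days 13 to 17 after the procedure, and irises were taken at 10 weeks of age.

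The receptors fall into a surface group and an endosomal group. Tlr1, Tlr2, Tlr4, Tlr5 and Tlr6 sit in the plasma membrane and bind lipopeptides, lipopolysaccharide or flagellin. Tlr3, Tlr7, Tlr8, Tlr9 and Tlr13 are carried by the chaperone Unc93b1 to endosomes, where they meet nucleic acids. Both groups signal through the adapter Myd88, apart from Tlr3, which uses Ticam1 (TRIF), and Tlr4, which uses both, and the signal ends in NF-κB and interferon regulatory factors that induce cytokines. Macrophages, dendritic cells and neutrophils are rich sources of these receptors, while Tlr3 and Tlr4 are also found in many cells outside the immune system.

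Total estimated counts per library lay between 16617187 and 18306359. Levels are given as CPM, counts scaled to library totals that edgeR's TMM method had adjusted, and a gene was called where its adjusted p was under 0.05 and its change over 1.5-fold in edgeR's quasi-likelihood test across all 15010 genes. Flt4 RNA was not lower in the libraries labelled VEGFR3iLECko (27.9, 21.0 and 27.4 CPM) than in the injured VEGFR3fl/fl libraries (16.8, 20.7 and 23.0 CPM), with an adjusted p of 0.200 in the edgeR test. The files do not separate the floxed exons or the lymphatic cells, so this count does not check the deletion. The genotype tags of replicates 2 and 3 of that group name another VEGFR number, and their titles and descriptions were followed. The summed CPM of 4 Y-linked genes was 51.1 to 167 in the Sham libraries, 151, 136 and 0.804 in replicates 1, 2 and 3 of the injured VEGFR3fl/fl group, and 0.736 to 1.11 in the VEGFR3iLECko libraries, so the pools differed in sex. Iris pigment cell markers fell in both injured groups, from a summed 27380 to 29240 CPM in the Sham group to 3367 to 5787 CPM in the injured VEGFR3fl/fl group and 5040 to 7067 CPM in the VEGFR3iLECko group.

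In the GRCm38 (mm10) annotation of GENCODE M21, Tlr1 (chr5:64924679-64933563) and Tlr6 (chr5:64952031-64960097) lie close together on the minus strand. Tlr8 (chrX:167242696-167264329) and Tlr7 (chrX:167304929-167330558) are likewise close together on the minus strand of chromosome X, and Tlr13 (chrX:106143204-106160493, plus strand) is X-linked as well. The others are on separate chromosomes: Tlr2 at chr3:83836272-83841767 (minus), Tlr3 at chr8:45395665-45411080 (minus), Tlr4 at chr4:66827584-66930284 (plus), Tlr5 at chr1:182954788-182976044 (plus) and Tlr9 at chr9:106222598-106226883 (plus). Exons of Tlr3 overlap those of the antisense gene Gm45542, and whether the counting used strand is not given in the sources used here, so reads of the overlapping part cannot be assigned to either gene.

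RefSeq promoters of GRCm38.p6, from 250 bases before to 50 bases after a start site, were matched for 8 of the 10 genes with 10 start sites, and Tlr4 and Tlr7 had no entry. On either strand they were searched for 5 motifs, namely GAGGAA, a core bound by the macrophage factor PU.1, GGG and TTTCC parted by any 2 bases for NF-κB, GAAA and GAAA parted by any 2 bases for interferon regulatory factors, TGANTCA for AP-1 and TATAAA for the TATA box. Among the 10 start sites, GAGGAA was found in promoters of Tlr1, Tlr8, Tlr9 and Tlr13, and 28.3% of all 32851 mouse promoters of the same length held it. It was not found in those of Tlr2, Tlr3, Tlr5, Tlr6 or the further start of Tlr1, and Tlr2 and Tlr6 rose after injury too. Tlr9 held a further match 12 bases after its start. Paired matches of the interferon factor letters that overlap each other were found in front of Tlr6, and this motif was in 3.4% of all promoters. The 120 bases before these starts are printed 5′ to 3′ on the strand of the gene, with the matches in capitals (as the reverse complement for Tlr8 and Tlr6), since they are the promoters in which a motif of the macrophage or interferon factors was met.
Tlr13 (chrX:106143155-106143274, plus strand): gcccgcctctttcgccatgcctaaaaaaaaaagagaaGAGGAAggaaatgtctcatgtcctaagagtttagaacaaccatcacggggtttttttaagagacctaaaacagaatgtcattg
Tlr8 (chrX:167264330-167264449, minus strand): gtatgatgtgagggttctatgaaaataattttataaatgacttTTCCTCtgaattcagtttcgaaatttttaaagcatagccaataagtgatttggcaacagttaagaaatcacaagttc
Tlr9 (chr9:106222478-106222597, plus strand): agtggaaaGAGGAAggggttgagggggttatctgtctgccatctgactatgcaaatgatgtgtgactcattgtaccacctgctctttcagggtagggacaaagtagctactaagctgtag
Tlr1 (chr5:64933559-64933678, minus strand): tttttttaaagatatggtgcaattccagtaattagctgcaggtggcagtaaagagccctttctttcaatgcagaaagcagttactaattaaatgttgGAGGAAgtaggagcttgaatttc
Tlr6 (chr5:64959167-64959286, minus strand): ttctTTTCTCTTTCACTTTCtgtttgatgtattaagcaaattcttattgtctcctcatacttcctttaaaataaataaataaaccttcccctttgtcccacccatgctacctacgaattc
Of the other matches, Tlr3 held the NF-κB letters 211 bases before its start (1.6% of all promoters hold them), Tlr9 the AP-1 letters 58 bases before (7.8%), and Tlr8 and a further start site of Tlr6 the TATA letters (13.6%). Such a match is a description of letters and not a binding site, and no promoter of Tlr2, Tlr5 or the further start of Tlr1 held any of the 5 motifs.

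To see how the receptors responded to CAI, injured VEGFR3fl/fl irises were compared with Sham VEGFR3fl/fl irises. Of the 10 genes, 8 rose, against 22.1% of all tested genes called higher and 17.5% called lower, and the increases ranged from 1.73-fold for Tlr4 to 21.6-fold for Tlr13. Tlr3 and Tlr5 did not pass the test. The same 8 genes were higher without overlap of the libraries, as were 33.9% of all genes, while 32.4% were lower without overlap. Both locations took part, as 4 of 5 surface receptors and 4 of 5 endosomal receptors rose, with median log2 fold changes of 2.48 and 2.76, while the median over all tested genes was 0.01. In bulk tissue, more cells of a type and more RNA per cell cannot be told apart.

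Tlr13, the mouse sensor of bacterial ribosomal RNA, changed most. It was at 4.38, 5.31 and 5.01 CPM in the Sham libraries, at 114, 88.6 and 115 CPM in the injured VEGFR3fl/fl libraries and at 72.2, 87.5 and 84.0 CPM in the injured VEGFR3iLECko libraries. All injured libraries lay far above all Sham libraries, and the injured VEGFR3fl/fl group rose by a log2 fold change of 4.43 (SE 0.14, edgeR adjusted p = 5.157e-08). Tlr8, the neighbour and relative of Tlr7, rose 17.4-fold. Its values were 2.44, 1.58 and 1.58 CPM in Sham, 27.9, 31.3 and 38.4 CPM in injured VEGFR3fl/fl and 24.1, 31.8 and 32.6 CPM in injured VEGFR3iLECko irises, so that the injured groups overlapped each other and both were clear of Sham (log2 fold change 4.12, SE 0.22, edgeR adjusted p = 6.637e-07).

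Tlr7, a sensor of single-stranded RNA, was already present in the Sham iris, at 8.97, 11.1 and 10.8 CPM. It reached 49.6, 41.2 and 42.2 CPM after injury in VEGFR3fl/fl mice, an increase of 4.31-fold (log2 2.11, SE 0.11, edgeR adjusted p = 5.877e-07), but only 27.8, 27.5 and 26.6 CPM in the VEGFR3iLECko group. The 3 groups thus stood apart from each other for this gene. Tlr9, which binds unmethylated CpG DNA, was the lowest endosomal receptor. It had 1.00, 0.56 and 0.45 CPM in Sham, 3.10, 3.51 and 7.12 CPM in injured VEGFR3fl/fl and 4.44, 5.21 and 3.51 CPM in injured VEGFR3iLECko irises, and rose 6.76-fold with a wide error (log2 2.76, SE 0.42, edgeR adjusted p = 0.0004233).

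Tlr3, the sensor of double-stranded RNA, was at 22.2, 19.8 and 20.8 CPM in Sham, 21.5, 23.9 and 25.8 CPM in injured VEGFR3fl/fl and 24.5, 28.2 and 28.6 CPM in injured VEGFR3iLECko libraries. The Sham and injured VEGFR3fl/fl ranges overlapped, and the log2 fold change was 0.18 (SE 0.10, edgeR adjusted p = 0.1423). It was the endosomal receptor with the highest level in the Sham iris and the only member of that group that was not called after injury.

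**Figure D1:**
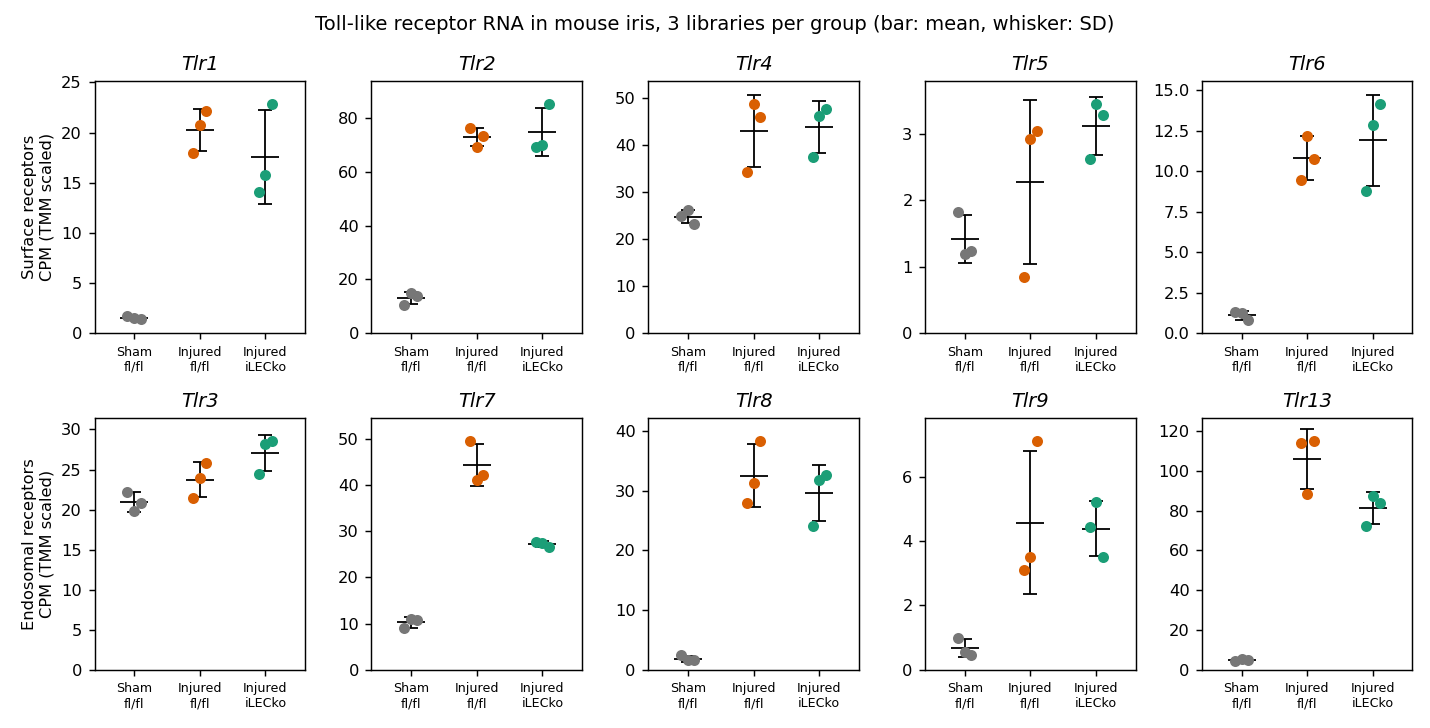
CPM of each of the 10 receptors (y axes from 0, scaled per gene) in Sham VEGFR3fl/fl, injured VEGFR3fl/fl and injured VEGFR3iLECko libraries, 3 points per group with the mean and SD. For 8 genes all injured VEGFR3fl/fl points lie above all Sham points, Tlr3 and Tlr5 overlap, and Tlr7 forms 3 separate levels.

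Among the surface receptors, Tlr2 and its partners Tlr1 and Tlr6, which together recognise bacterial lipopeptides, rose together. Tlr2 was at 10.6, 14.8 and 13.9 CPM in Sham, 76.2, 69.5 and 73.5 CPM in injured VEGFR3fl/fl and 69.4, 70.1 and 85.4 CPM in injured VEGFR3iLECko libraries. The injured groups overlapped and stood clear of Sham, and the rise in the VEGFR3fl/fl group was 5.59-fold (log2 2.48, SE 0.13, edgeR adjusted p = 8.007e-07). Tlr1 went from 1.72, 1.47 and 1.41 CPM in Sham to 18.0, 20.7 and 22.1 CPM in injured VEGFR3fl/fl and 14.1, 15.7 and 22.9 CPM in injured VEGFR3iLECko libraries, and Tlr6 from 1.27, 1.24 and 0.79 CPM to 9.47, 12.2 and 10.7 CPM and 8.76, 12.9 and 14.2 CPM. Both partners again separated all injured libraries from all Sham libraries, with increases of 13.2-fold for Tlr1 (log2 3.72, SE 0.22, edgeR adjusted p = 1.156e-06) and 9.74-fold for Tlr6 (log2 3.28, SE 0.26, edgeR adjusted p = 6.686e-06).

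Tlr4, the receptor for lipopolysaccharide, had the highest CPM of the 10 genes in the Sham iris and the smallest change among those called. It was at 24.8, 26.2 and 23.3 CPM in Sham, 34.2, 48.7 and 45.8 CPM in injured VEGFR3fl/fl and 37.5, 46.2 and 47.6 CPM in injured VEGFR3iLECko libraries. No injured library fell to the Sham range, and the log2 fold change in the VEGFR3fl/fl group was 0.79 (SE 0.14, edgeR adjusted p = 0.001084). Tlr5, the flagellin receptor, was scarce, at 1.83, 1.19 and 1.24 CPM in Sham, 0.85, 2.93 and 3.04 CPM in injured VEGFR3fl/fl and 2.63, 3.45 and 3.28 CPM in injured VEGFR3iLECko libraries. Replicate 1 of the injured VEGFR3fl/fl group lay below all Sham libraries while its other replicates lay above them, and the log2 fold change of 0.68 (SE 0.44) was not called (edgeR adjusted p = 0.2079). Without that replicate it was 1.07 (SE 0.28, edgeR adjusted p = 0.008947).

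**Figure D2:**
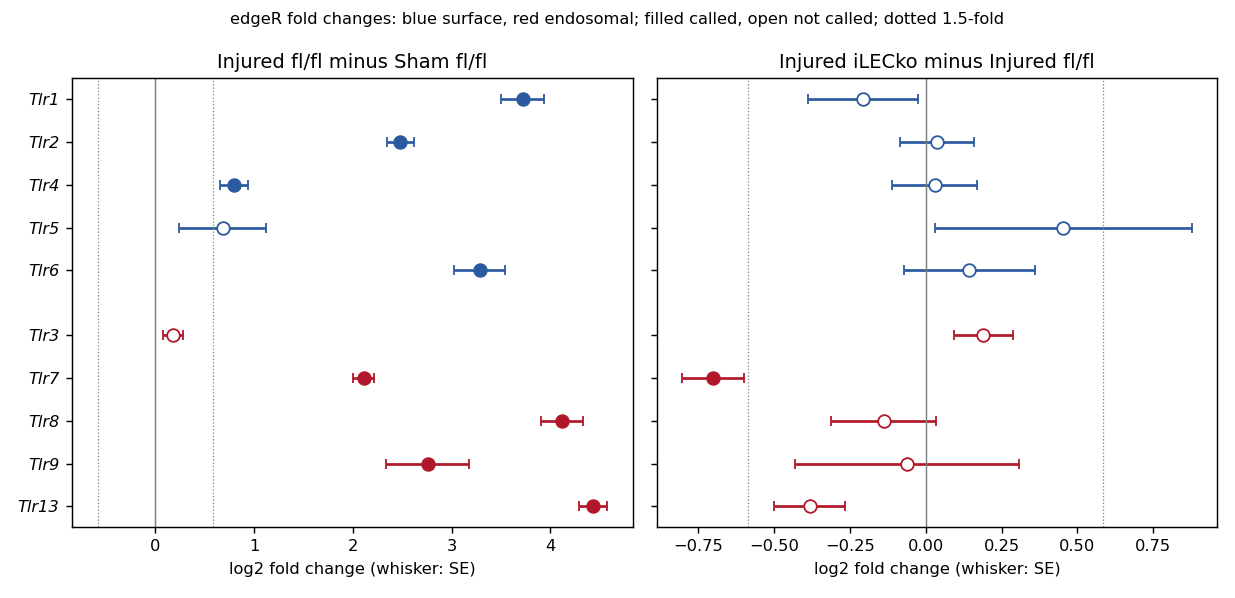
log2 fold changes with SE from edgeR for the 5 surface (blue) and 5 endosomal (red) receptors, for injury in VEGFR3fl/fl mice (left) and for injured VEGFR3iLECko against injured VEGFR3fl/fl (right, narrower axis), with dotted lines at 1.5-fold. On the left 8 symbols are filled (called) and Tlr3 and Tlr5 are open, and on the right Tlr7 at -0.70 is the only filled symbol.

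The levels of different genes were compared per transcript length, as approximate TPM from the longest GENCODE M21 transcript. The summed TPM of the 10 receptors was 59.8 ± 0.64 in Sham, 230 ± 25.4 in injured VEGFR3fl/fl and 229 ± 28.3 in injured VEGFR3iLECko irises (SD, n = 3). In the Sham iris Tlr4 led with 17.4 ± 0.84 TPM, followed by Tlr3 at 13.6 ± 1.31 and Tlr2 at 12.4 ± 1.70, whose libraries overlapped, and then by Tlr7 and Tlr13 without overlap between neighbours. In injured VEGFR3fl/fl irises Tlr13 at 60.6 ± 8.31 TPM and Tlr2 at 56.4 ± 3.01 TPM were on top and overlapped each other, and Tlr7 at 26.4 ± 0.71, Tlr4 at 24.8 ± 6.07, Tlr8 at 22.2 ± 5.04 and Tlr1 at 15.7 ± 2.75 TPM overlapped from neighbour to neighbour. In injured VEGFR3iLECko irises Tlr2 at 64.3 ± 8.05 TPM exceeded Tlr13 at 51.8 ± 6.68 TPM without overlap, and Tlr7 at 18.1 ± 0.63 TPM ranked below Tlr4 and Tlr8, overlapping Tlr8. Tlr5 and Tlr9 were the lowest in both injured groups, at 1.43 to 3.27 TPM.

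As shares of the summed TPM, Tlr4 went from 29.0% in Sham to 10.7% in injured VEGFR3fl/fl and 12.1% in injured VEGFR3iLECko irises, and Tlr3 from 22.8% to 5.46% and 6.95%. Tlr13 took the opposite course, from 5.76% to 26.4% and 22.6%, and Tlr8 went from 2.61% to 9.58% and 9.69%. The share of Tlr2 was 20.7% in Sham, 24.6% in injured VEGFR3fl/fl and 28.1% in injured VEGFR3iLECko irises, and that of Tlr7 was 12.6%, 11.6% and 7.98%. The endosomal receptors together held 42.7% to 46.1% in Sham, 51.1% to 56.3% in injured VEGFR3fl/fl and 46.0% to 50.9% in injured VEGFR3iLECko libraries, so that the injured VEGFR3fl/fl range did not overlap either of the others. These orders and shares depend on the transcript length used, and the shares were computed with the longest transcript only. Whether the endosomal receptors hold the smaller part in Sham thus rests on that length. Tlr3, for example, was at 13.6 TPM in Sham with the longest transcript and at 35.5 TPM with the median length. With the median length of a gene's transcripts, Tlr3 ranked 1 and Tlr4 2 in Sham, and Tlr8 ranked 1 and Tlr2 5 in both injured groups.

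**Figure D3:**
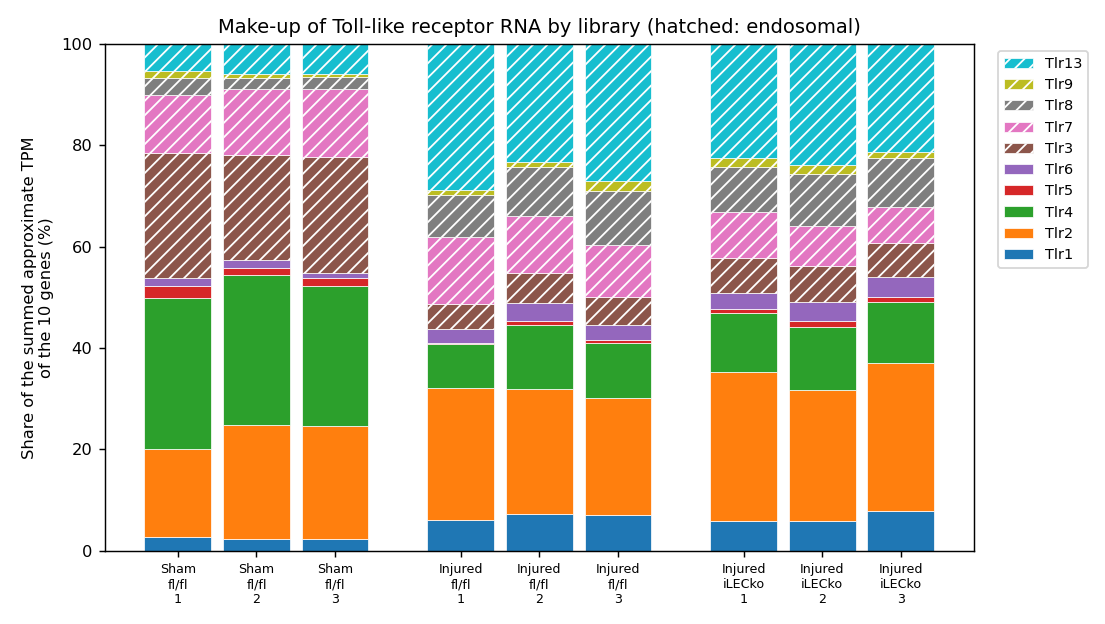
Share of each receptor in the summed approximate TPM of the 10 genes (y axis, percent) in each of the 9 libraries, with endosomal receptors hatched. In all 6 injured libraries Tlr13 and Tlr8 take larger shares, and Tlr4 and Tlr3 smaller ones, than in the Sham libraries.

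Markers of several immune cell types rose after injury as the receptors did, where 22.1% of all tested genes were called higher and 17.5% lower. All 12 macrophage markers rose after injury in VEGFR3fl/fl irises (median log2 fold change 3.24), with a geometric mean of 29.5 to 30.4 CPM in Sham, 259 to 266 CPM in injured VEGFR3fl/fl and 151 to 173 CPM in injured VEGFR3iLECko libraries, and their sums were 545 to 563, 12800 to 21250 and 8197 to 10180 CPM. Of 9 neutrophil markers, 6 were tested and 5 rose, with sums of 4.04 to 5.07, 107 to 389 and 273 to 617 CPM in the same order of groups. Of 7 classical dendritic cell markers 6 rose, and the sums were 11.3 to 13.0, 183 to 288 and 111 to 216 CPM. All 6 tested T cell markers rose (sums 3.66 to 4.21, 35.6 to 53.1 and 20.0 to 39.4 CPM), as did 2 of 5 tested markers of plasmacytoid dendritic cells, a main source of Tlr7 and Tlr9 (66.1 to 119, 97.8 to 149 and 69.9 to 85.5 CPM). Between the injured groups no marker of the neutrophil, dendritic or T cell lists was called. In VEGFR3iLECko irises 3 of 6 T cell markers and 1 of 5 plasmacytoid dendritic cell markers were lower without overlap, as were 14.3% of all tested genes. Lists of other cells changed after injury in VEGFR3fl/fl irises too. Called higher were 4 of 6 endothelial and 3 of 5 fibroblast markers. Of 6 B cell markers only 2 had enough counts to be tested, and both were called higher. The B cell sums were low, at 1.464 to 1.495 CPM in Sham and 4.59 to 5.95 CPM in injured VEGFR3fl/fl libraries. Called lower were 4 of 5 smooth muscle, 6 of 6 pigment cell and 3 of 4 tested corneal epithelial markers. The corneal sums were low and uneven in Sham, at 2.65 to 50.5 CPM against 0.668 to 3.79 CPM in injured VEGFR3fl/fl libraries. Only 1 of the 4 was lower without overlap, where 32.4% of all tested genes were. No marker of these lists was at 0 in all libraries, and their part in the receptor results was not tested.

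Set against the macrophage markers, the receptors separated. Relative to the geometric mean of the 12 markers, Tlr13 was 2.47 times, Tlr8 1.99 times and Tlr1 1.51 times as high in injured VEGFR3fl/fl as in Sham irises, each without overlap, so these rose more than the average marker. Tlr6 and Tlr9 overlapped, with ratios of 1.12 and 0.778. Tlr2, Tlr7, Tlr4, Tlr5 and Tlr3 were lower relative to the markers without overlap, at 0.639, 0.493, 0.198, 0.184 and 0.130 times the Sham value. The geometric mean rose from 29.9 to 262 CPM and the sum from 555 to 16610 CPM, so a gene of unchanged CPM falls relative to either. Tlr2, Tlr7 and Tlr4 were called higher in CPM, and the share of all genes with lower ratios was not computed. Relative to the sum of the same markers, all 10 receptors were lower after injury without overlap, from 0.740 times for Tlr13 to 0.0399 times for Tlr3, and Lyz2, which neutrophils express too, made up 78.6% of that sum in injured VEGFR3fl/fl irises and 25.4% in Sham.

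Irises of injured VEGFR3iLECko and injured VEGFR3fl/fl mice were then compared, to see whether the receptors differed with the genotype label after the same injury. Of the 10 receptors, Tlr7 was called lower and none was called higher, against 0.466% of all tested genes called lower and 0.573% called higher. Tlr7 had 26.6 to 27.8 CPM in the VEGFR3iLECko libraries and 41.2 to 49.6 CPM in the VEGFR3fl/fl libraries, a log2 fold change of -0.70 (SE 0.10, edgeR adjusted p = 0.02627), or 0.615 times the level. Without overlap, Tlr13 was lower too, with a log2 fold change of -0.38 (SE 0.12), but it did not pass the test (edgeR adjusted p = 0.1068). These are 2 of 10 receptors whose groups did not overlap downwards, where 14.3% of all genes did so, and none of 10 did upwards, where 12.4% of all genes did. The remaining 8 overlapped, with log2 fold changes of -0.21 for Tlr1, -0.14 for Tlr8, -0.06 for Tlr9, 0.03 for Tlr4, 0.04 for Tlr2, 0.14 for Tlr6, 0.19 for Tlr3 and 0.45 for Tlr5 (adjusted p from 0.259 to 0.935).

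The Tlr7 call rested on a narrow margin. It was lost without replicate 1, 2 or 3 of the VEGFR3iLECko group (adjusted p 0.0606, 0.111 and 0.0592), without replicate 3 of the Sham group (0.0596) with the replicate block (0.0719) and in a fit of only these 2 groups (0.0968), and its log2 fold change stayed between -0.75 and -0.61 under all 19 alternatives, with DESeq2 giving an adjusted p of 2.263e-06. Tlr7 is X-linked and the pools differed in sex, and with the Y-linked expression as a covariate the log2 fold change was -0.61 (SE 0.14, edgeR adjusted p = 0.2605). Replicate 3 of the injured VEGFR3fl/fl group lacked Y-linked RNA, as the VEGFR3iLECko libraries did. It had 42.2 CPM of Tlr7, where those libraries had 26.6 to 27.8 CPM, and 38.4 CPM of Tlr8 and 115 CPM of Tlr13. This is 1 library, and genotype label and Y-linked RNA went largely together in the injured groups. The parts of sex and label in the Tlr7 difference cannot be told apart.

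Macrophage markers moved in the same direction as Tlr7. Of all tested genes 0.466% were called lower and 14.3% were lower without overlap. Of the 12 macrophage markers 7 were called lower in VEGFR3iLECko irises, the median log2 fold change was -0.78 and 11 did not overlap. Their geometric mean was 262 CPM in injured VEGFR3fl/fl and 161 CPM in VEGFR3iLECko irises, so a gene of unchanged CPM comes out higher relative to it. Relative to this mean, Tlr7 was 1.01 times its level in injured VEGFR3fl/fl irises and overlapped. Tlr2 and Tlr4 at 1.68 times, Tlr6 at 1.82, Tlr3 at 1.87 and Tlr5 at 2.25 times were higher without overlap. None of those higher ones was called in CPM, and the share of all genes with such ratios was not computed. Tlr13, Tlr1, Tlr8 and Tlr9 were at 1.26 to 1.56 times and overlapped. Relative to the sum of the markers, Tlr2 at 1.77, Tlr3 at 1.93 and Tlr5 at 2.17 times were higher without overlap, but Tlr4 at 1.69 and Tlr6 at 1.86 times overlapped, as did Tlr7 at 1.06 times. The part of macrophage number in these values was not tested.

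**Figure D4:**
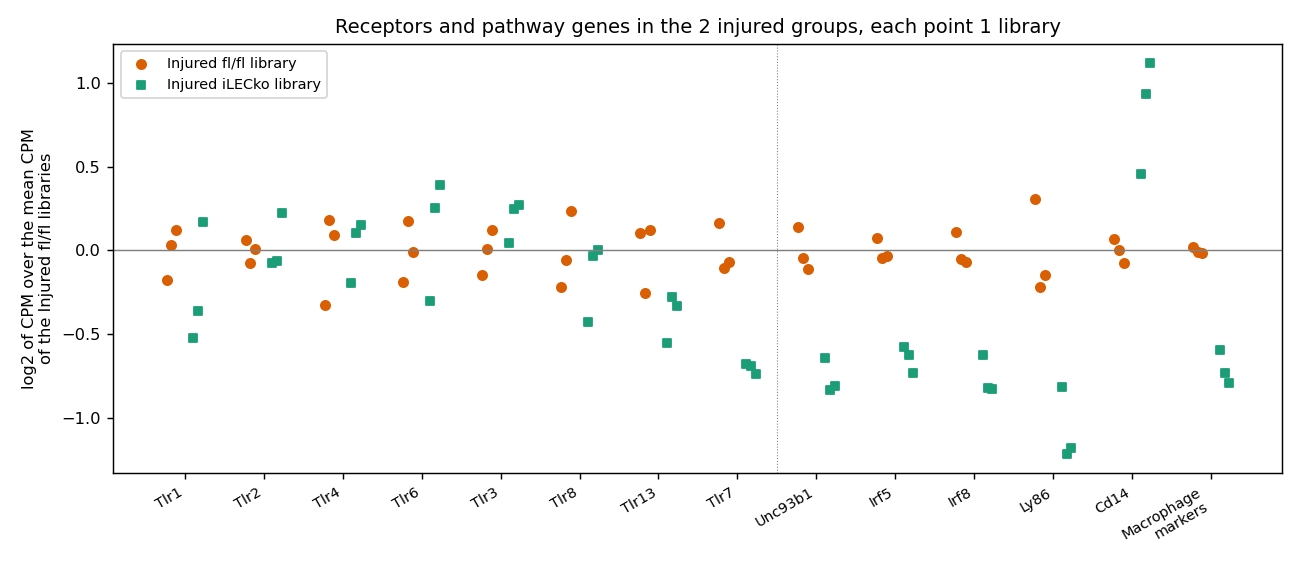
log2 of the CPM in each injured library over the mean CPM of the injured VEGFR3fl/fl libraries (y axis), for 8 receptors, 5 genes of the pathway and the geometric mean of 12 macrophage markers, with circles for VEGFR3fl/fl and squares for VEGFR3iLECko. Tlr7 lies low beside Unc93b1, Irf5, Irf8 and the macrophage markers, Tlr2, Tlr4 and Tlr6 overlap between groups, and Cd14 lies above.

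Compared with Sham, which also serves as the control of the injury comparison, the injured VEGFR3iLECko irises had 8 receptors called higher, against 19.7% of all tested genes, and none called lower, against 15.0%, with folds from 1.77 for Tlr4 to 16.6 for Tlr13. Tlr7 was 2.65-fold higher than in Sham (log2 1.41, SE 0.11, edgeR adjusted p = 7.916e-06). Tlr3 passed the test on adjusted p (0.01074) but was 1.29-fold higher, under the fold threshold, and Tlr5 had a log2 fold change of 1.13 with an adjusted p of 0.05124, or 0.004153 without replicate 1 of the injured VEGFR3fl/fl group. The groups did not overlap for any of the 10 genes, where 33.3% of all genes were higher and 33.2% lower without overlap. With the Y-linked covariate Tlr4 was no longer called (log2 0.68, edgeR adjusted p = 0.05756).

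The proteins that hand ligands to the receptors or pair with them rose with them after injury in VEGFR3fl/fl irises. Of 8 such genes 7 were called higher and Hmgb1 was not, with a median log2 fold change of 3.12, where 22.1% of all tested genes were called higher. Cd14, the co-receptor that passes lipopolysaccharide to Tlr4, went from 7.08 ± 1.04 to 57.8 ± 2.96 CPM (log2 3.03), and Ly96 (MD-2), the subunit of Tlr4 that binds it, from 5.35 ± 0.858 to 14.1 ± 2.59 CPM (log2 1.40; SD, n = 3). Lbp, the carrier of lipopolysaccharide, rose by 2.54 on the log2 scale, and Cd180 and its partner Ly86, relatives of Tlr4 and Ly96, rose by 3.22 and 3.23. Clec7a, the β-glucan receptor that cooperates with Tlr2, rose most, by 5.82, and Cd36, a scavenger receptor, by 3.32. The smaller change of Tlr4 thus stood beside larger changes of most of its partners.

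Genes for folding, transport and processing of the receptors were less uniform, with 7 of 14 called higher and Rnaset2b called lower (median log2 fold change 0.60). Of all tested genes 22.1% were called higher and 17.5% lower. Unc93b1, the chaperone of the endosomal receptors, went from 41.0 ± 4.09 to 272 ± 25.0 CPM (log2 2.73, SE 0.11, edgeR adjusted p = 1.454e-07). The endosomal peptide transporter Slc15a3 rose by 4.48 on the log2 scale, and Ctss and Lgmn, proteases of the endosome, by 5.88 and 2.80. Hsp90b1, the chaperone that most Toll-like receptors need in order to fold, had a log2 fold change of 0.41 (edgeR adjusted p = 0.02745), under the fold threshold. Reads of Rnaset2b can be split with its close copy Rnaset2a, so that its change is uncertain.

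Of 6 adapters 4 rose, against 22.1% of all tested genes, with a median of 1.21. Myd88, which serves both surface and endosomal receptors, rose by 1.48 on the log2 scale, Ticam2 (TRAM) by 3.47, Tirap by 0.94 and Pik3ap1 by 3.19. Ticam1, the adapter of Tlr3, had a log2 fold change of 0.02 (SE 0.11, edgeR adjusted p = 0.9026), near 0 like that of Tlr3 itself. Among 20 kinases and ubiquitin enzymes 5 rose and 2 fell (median 0.05), shares near the 22.1% and 17.5% of all tested genes called higher and lower. Irak4, the kinase that binds Myd88, rose by 1.13, Ikbke by 1.40 and Ripk1 by 0.96, and Traf6 had a log2 fold change of -0.16 (edgeR adjusted p = 0.2028).

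The counts of the following lists stand beside 22.1% of all tested genes called higher and 17.5% called lower. Of 8 transcription factors at the end of the pathway 5 rose (median 1.20), led by Irf8, Irf5 and Irf7 with log2 fold changes of 3.42, 3.29 and 1.42. Of 14 negative regulators 9 rose (median 1.32), among them Zc3h12a, which degrades cytokine mRNA, by 2.87, Irak3, an inhibitor of Irak signaling, by 2.08, Il1rl1 (ST2) by 2.17, Sigirr by 1.16 and Tnfaip3 (A20) by 0.75. Tollip had a log2 fold change of -0.37 (edgeR adjusted p = 0.00121), under the fold threshold. Of 24 targets that the receptors are known to induce, 20 were tested. Il10, Il12a and Il23a had too few counts, and Ifnb1 was not listed. Of the 20, 19 rose and Ifit1 did not pass, with a median of 3.44. Acod1, Il6 and Il12b, at 3 or fewer counts in every Sham library, had enough counts to be tested only through injured libraries. A rise was thus the only change these 3 could show, and with them set at their bound the median was 3.24. Il1b went from 0.859 ± 0.114 to 80.5 ± 41.6 CPM. Acod1, which makes itaconate, had 0 counts in all Sham libraries and 87, 255 and 95 counts after injury, at least 50.9-fold higher than 3 counts per Sham library, and Il6 had 1 count in all Sham libraries together and 19, 61 and 47 counts after injury. Of 11 endogenous ligands 5 rose and Hspa1a fell, with S100a8 and S100a9 rising by 7.74 and 7.35 and the matrix protein Tnc by 5.03. The median of these ligands was 2.86, or 1.56 with Camp, at 3 counts in all Sham libraries together, set at its bound.

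Between the injured groups 5 of these pathway genes were called lower and 2 higher, where 0.466% and 0.573% of all tested genes were. Unc93b1 was at 300, 264 and 252 CPM in injured VEGFR3fl/fl and 174, 153 and 155 CPM in injured VEGFR3iLECko libraries, lower without overlap (log2 -0.76, SE 0.10, edgeR adjusted p = 0.02353). With the Y-linked covariate Unc93b1 was not called (edgeR adjusted p = 0.2243). Irf5, which acts downstream of Myd88, was at 46.0, 42.3 and 42.7 against 29.2, 28.3 and 26.3 CPM (log2 -0.64, SE 0.08, edgeR adjusted p = 0.02133), and Irf8 was lower by a log2 fold change of -0.76 (SE 0.09, edgeR adjusted p = 0.02133). Dnase2a, which digests DNA in lysosomes, and Ly86 were lower as well, with log2 fold changes of -0.70 and -1.06 (edgeR adjusted p = 0.03835 and 0.02777). Irf7, Lbp, Cd180 and Ticam2 had log2 fold changes of -0.95, -0.77, -0.73 and -0.67 and were not called (edgeR adjusted p = 0.07761, 0.06688, 0.06103 and 0.1133), and Myd88 had -0.27 (0.2022).

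In the other direction, Cd14 was at 60.8, 57.9 and 54.8 CPM in injured VEGFR3fl/fl and 79.6, 111 and 126 CPM in injured VEGFR3iLECko libraries (log2 0.86, SE 0.16, edgeR adjusted p = 0.04061). Among the induced targets Il6 was the only gene called between the injured groups, with 1.15, 3.57 and 2.70 CPM against 16.5, 14.5 and 14.7 CPM (log2 2.62, SE 0.37, edgeR adjusted p = 0.02627). The groups did not overlap for either gene. No adapter, kinase, negative regulator or endogenous ligand was called in either direction.

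Against Sham, the VEGFR3iLECko irises had 7 of 8 co-receptors, 4 of 6 adapters, 4 of 8 transcription factors, 8 of 14 negative regulators and 16 of 20 tested induced targets called higher. Those targets include Acod1, Il6 and Il12b, which had enough counts to be tested only through injured libraries. Among folding and processing genes 7 were higher and 2 lower, among 20 kinases and ubiquitin enzymes 4 and 1, and among endogenous ligands 6 and 1. Of all tested genes 19.7% were called higher and 15.0% lower, and the kinases stood near that share of higher calls. Cd14, Unc93b1 and Myd88 had log2 fold changes of 3.89, 1.97 and 1.21, and Ticam1 again lay near 0, at 0.01. The matrix protein Fn1, the NF-κB subunit Rel and the regulator Nfkbiz, which were among the largest changes of their lists here, rose by 5.14, 1.43 and 2.35. Acod1 was at least 120-fold higher than 3 counts per Sham library.

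Without replicate 2 of the VEGFR3iLECko group Tlr7 and these 7 pathway genes were no longer called (adjusted p 0.103 to 0.145). Without its replicate 1 the calls of Ly86, Unc93b1, Dnase2a, Irf5 and Il6 were lost (0.0584 to 0.0719), and without its replicate 3 those of Ly86, Cd14, Unc93b1, Dnase2a and Il6 (0.0513 to 0.0884). Leaving out replicate 1 or 3 of the Sham group ended the calls of Ly86, Cd14, Dnase2a and Il6 (0.0579 to 0.0780), replicate 3 also that of Unc93b1 (0.0562), and replicate 2 that of Cd14 (0.0580). Without replicate 1 of the injured VEGFR3fl/fl group Cd14 and Dnase2a were not called (0.0556 and 0.0568), and without its replicate 2 or 3 Cd14 was not (0.0553 and 0.0577). With the Y-linked covariate none of the 7 pathway genes was called (0.174 to 0.333), nor was any in a fit of only the 2 injured groups (0.0943 to 0.113). The replicate block ended the calls of Ly86, Cd14, Unc93b1, Dnase2a and Il6 (0.0510 to 0.0781), and with library size only Irf5 had a log2 fold change of -0.58, under the fold threshold. The DESeq2 Wald test called all 7 (adjusted p 1.928e-09 to 8.407e-05).

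The values of Tlr1 and Tlr6 are not independent of each other. Their coding sequences share 6 runs of at least 53 identical bases, the longest of 229 and 208 bases, and reads of 50 bases that fall inside them match both genes. Of the 50-base windows of Tlr1, 13.6% occur in Tlr6, and 12.3% of those of Tlr6 occur in Tlr1. Between the 2 longest runs the genes differ at 2 of 98 bases, which are in capitals below and lie in the coding exons at bases 1667 to 1764 of Tlr1 and 1706 to 1803 of Tlr6, counted from the start codon.
Tlr1 (chr5:64925469-64925566, minus strand): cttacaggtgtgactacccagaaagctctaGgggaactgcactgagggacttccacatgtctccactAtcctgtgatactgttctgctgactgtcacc
Tlr6 (chr5:64953760-64953857, minus strand): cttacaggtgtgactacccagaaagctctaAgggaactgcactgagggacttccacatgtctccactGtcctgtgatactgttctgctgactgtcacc
In 4 of 9 libraries the estimated counts of both genes were fractional, and their fractions summed to whole reads. The sum of the 2 genes was 2.63 ± 0.403 CPM in Sham, 31.1 ± 3.14 CPM in injured VEGFR3fl/fl and 29.5 ± 7.13 CPM in injured VEGFR3iLECko irises (SD, n = 3), 11.8-fold and 11.2-fold above Sham, so the rise does not depend on how such reads were split. Tlr7 had fractional estimates in 9 of 9 libraries although none of its windows occurs in another GENCODE M21 transcript, and where those fractions come from is not given in the sources used here. Of the other receptors, Tlr3 shares 5.30% of its windows with Gm45542, Tlr4 shares 0.22% with other genes, as Tlr1 shares 1.11% with the gene model Gm43941, and Tlr2, Tlr5, Tlr8, Tlr9 and Tlr13 share none.

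**Figure D5:**
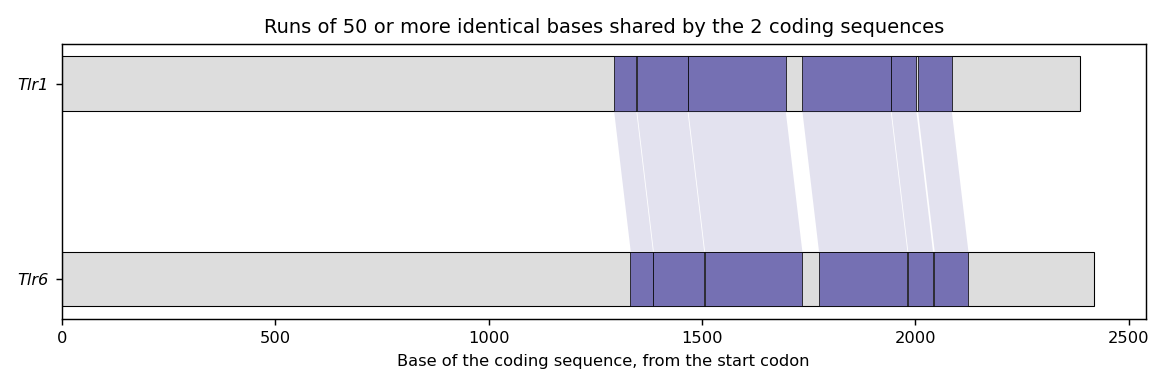
Coding sequences of Tlr1 (2385 bases) and Tlr6 (2418 bases) drawn to scale from the start codon (x axis, bases), with shaded blocks joined where at least 50 bases in a row are identical. The 6 shared runs lie between bases 1294 and 2085 of Tlr1 and between bases 1333 and 2124 of Tlr6, and the stretch before them holds none.

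To place each receptor among all genes, the 14212 other genes with a mean of at least 1 CPM were ranked by the root mean square difference of their centred log2 CPM over the 9 libraries, which share the 3 groups. The gene nearest to Tlr13 was Cd84, a receptor of leukocytes (0.09), and that nearest to Tlr8 was Ptprc, the common leukocyte antigen CD45 (0.18). Tlr7 was nearest to Blvra, which reduces biliverdin (0.07), Tlr2 to Ppic (0.13), Tlr1 to Ugt1a7c (0.15), Tlr6 to Atp8b1 (0.14) and Tlr9 to Olr1 (0.22). Tlr3, Tlr4 and Tlr5 were nearest to Gnai3 (0.03), Nipa2 (0.06) and Fem1c (0.17). Among themselves, Tlr1 and Tlr6 (0.266) lay closest, followed by Tlr3 and Tlr4 (0.274), Tlr1 and Tlr8 (0.284) and Tlr8 and Tlr13 (0.311). Tlr3 and Tlr13 were farthest apart (1.83).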

How the data were processed

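Per the labels and the study's methods, poly(A)-selected TruSeq libraries were sequenced as single-end reads of 50 bases, and filtered reads were aligned to mm10. The submitters' processing notes name HISAT2 2.0.4, Bowtie2 2.2.5 and DESeq2 1.4.5. The program that estimated counts is not given in the sources used here. The authors deposited estimated counts per gene without normalization, of which 9.83% to 10.3% per library were not whole. A combined table with identical values and group averages was not used.

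Estimated counts were rounded. edgeR 4.0.16 (R 4.3.3) selected genes by filterByExpr, scaled libraries by TMM and fitted all 9 libraries by quasi-likelihood with group as the only term, with Benjamini-Hochberg adjustment over 15010 genes. SEs came from the F statistic. Calls used the study's thresholds. Tested on simulated data of injured VEGFR3fl/fl against Sham libraries, the fit recovered 170 of 200 genes changed 3-fold among 14855 tested, with 12 false calls. Replicates differed by more than counting noise (chi-square per degree of freedom 5.13 to 76.2). Transcript lengths covered 97.6% of genes. Alternatives covered normalization, filter, test, libraries, a replicate block and a Y-linked covariate, with DESeq2 1.42.0. Named pathway genes were the 3 largest called changes of each list per comparison plus a fixed set of receptor partners and signaling genes, and Tlr12 was named after its values were seen. Receptors, lists and tests were chosen with earlier results of these data known, and the motifs, the 50-base windows and the geometric mean after the data were examined.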

Additional observations from a re-analysis of the deposited data

How the results depend on the processing

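The count of receptors called higher was 8 after injury in VEGFR3fl/fl irises and 8 in VEGFR3iLECko irises against Sham, and it stayed between 7 and 9 under the alternatives run. Between the injured groups 1 receptor (Tlr7) was called lower, and 0 were with the replicate block, with the Y-linked covariate or in a fit of only the 2 groups compared, and from 0 to 1 when each library was left out in turn. With the replicate block Tlr7 had a log2 fold change of -0.70 and an adjusted p of 0.0719. Same-numbered libraries correlated by -0.37 to 0.16 in their deviations from the group means, and differently numbered ones by -0.251 to 0.339. With 3 libraries per group, these values cannot show whether replicate numbers mark a shared batch.

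Direction changed only for values that were not called. Between the injured groups, the Y-linked covariate gave log2 fold changes of -0.081 for Tlr4, -0.008 for Tlr5, 0.129 for Hsp90b1, 0.057 for Ticam1 and -0.02 for Tollip, and Ticam1 was at 0.052 with library size only and at 0.001 in a fit of only these groups. Leaving out each library in turn gave -0.066 to 0.089 for Tlr2, -0.107 to 0.129 for Tlr4, -0.273 to 0.408 for Tlr9 and -0.09 to 0.066 for Ticam1. Against Sham, Ticam1 was at -0.001 (upper quartile) and -0.155 (library size only) in injured VEGFR3fl/fl irises, with -0.062 to 0.089 when libraries were left out, and at -0.02, -0.104 and -0.072 to 0.085 in VEGFR3iLECko irises. Traf6 there was at -0.025 (library size only) and -0.141 (Y-linked covariate), and Irf7 at -0.161 with that covariate. Relative to the geometric mean of the macrophage markers instead of their sum, an alternative chosen after seeing the data, the log2 ratios after injury were 0.60 for Tlr1, 0.19 for Tlr6, 1.01 for Tlr8 and 1.30 for Tlr13, against negative ratios for all 4 with the sum. The cause was not tested. Tlr5 and Tlr9, at low counts in the Sham iris, had the largest standard errors of the 10 receptors in all 3 comparisons.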

Other observations

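Tlr12, a receptor of parasite profilin that is not among the 10 genes, went the other way from most of them. It was at 4.76, 6.10 and 4.67 CPM in the Sham libraries, 1.46, 1.46 and 1.90 CPM in the injured VEGFR3fl/fl libraries and 2.16, 1.42 and 1.09 CPM in the injured VEGFR3iLECko libraries. All Sham libraries lay above all injured libraries, the injured groups overlapped, and the gene was singled out after its values were seen, so no test is given.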
